A study of Mus musculus with 10 samples.

Results

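The regions described here were CpG-dense 1 kb tiles deep inside gene bodies in mouse testis DNA. A tile is a fixed window of 1000 bases, and it was included when it lay on an autosome, held at least 20 measured CpGs, lay inside a protein-coding gene and was more than 5 kb from the ends of every annotated gene of any biotype. This rule uses position and the number of CpGs, not the methylation level or the groups. It was met by 906 of 165978 tiles with at least 3 measured CpGs, and by 906 of the 10163 autosomal tiles that held at least 20. The 906 tiles held 24733 CpGs, read at 36749 of the 1988759 cytosines in the table, and they lay in 733 of 21900 protein-coding genes. Of these tiles, 6 lay inside 2 protein-coding genes at once, and 603 of the host genes held 1 tile each. Whether a tile lies in an exon or an intron was not analysed here.

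Reduced representation bisulfite sequencing (RRBS) was performed on testis DNA of F2 mice, with 5 libraries of the arsenic group and 5 of the control group. RRBS cuts the genome at CCGG sites and reads the CpG-rich fragments after bisulfite has turned unmethylated cytosines into uracil, so that each read scores a cytosine as methylated or not. The F2 generation and the treatments, arsenic-treated and control, are all that the labels give: the treated ancestor, the dose, the strain and the age are not stated. The libraries of a group are not said to come from separate animals, so the spread between them may be partly technical.

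Clusters of CpGs mostly mark promoters, where they are usually kept free of methylation, while the bodies of transcribed genes are usually methylated. CpG clusters inside a gene can be alternative promoters of the same gene, enhancers, repeats or CpG-rich coding exons, and these differ in whether they are methylated. In male germ cells most of the genome is methylated before meiosis, and the control regions of maternally methylated imprinted genes are kept free of it.

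Reads over the measured cytosines totalled 87658994 to 100355708 in the arsenic libraries and 69771871 to 92434984 in the control libraries. Over the cytosines of the deep tiles, median coverage was 33 to 40 reads in arsenic libraries and 25 to 35 reads in control libraries, and a tile held a median of 1117 to 1728 reads per library. The upstream region of H19, methylated in male germ cells, stood at 95.6% ± 2.17 in arsenic and 95.2% ± 2.85 in control (SD, n = 5 each). Ends of maternally methylated imprinted genes (7 of 12 measured) were at 10.8% ± 1.09 in arsenic and 12.2% ± 3.54 in control. Ends of 6 germline genes stood at 19.8% ± 2.76 in arsenic and 19.98% ± 1.222 in control, and ends of Sertoli cell genes (1 of 4 measured) at 8.92% ± 2.19 in arsenic and 10.2% ± 1.53 in control. Leydig cell genes (2 of 4 measured) were at 8.51% ± 2.57 in arsenic and 10.5% ± 4.28 in control, and 1 of 2 blood genes at 49.0% ± 12.5 in arsenic and 54.1% ± 13.8 in control. None of these lists separated the groups beyond their spread.

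Annotated RefSeq start sites were looked up for 866 of the 906 tiles, and 142 of the 866 held a start of their own host gene. The start regions of 6 of these genes are printed because they span the range of levels seen at such starts. Nedd4 and Cuedc1 were the most methylated, Lmna lay in a tile with one of the smallest p-values, Cbfa2t3 lay in the tile with the most CpGs of those that held a start, and Dab1 and Stat5b had the most measured CpGs near a start. They were chosen after their values were seen. Each sequence runs from 250 bases before to 50 bases after the start, 5′ to 3′ on the gene's strand, from RefSeq on GRCm38.p6, and capitals mark the CpGs measured in all 10 libraries. The regions are chr9:72693048-72693347 (plus strand) for Nedd4, chr11:88169315-88169614 (plus) for Cuedc1, chr3:88493263-88493562 (minus) for Lmna, chr8:122678126-122678425 (minus) for Cbfa2t3, chr4:104367288-104367587 (plus) for Dab1 and chr11:100850532-100850831 (minus) for Stat5b.
Nedd4: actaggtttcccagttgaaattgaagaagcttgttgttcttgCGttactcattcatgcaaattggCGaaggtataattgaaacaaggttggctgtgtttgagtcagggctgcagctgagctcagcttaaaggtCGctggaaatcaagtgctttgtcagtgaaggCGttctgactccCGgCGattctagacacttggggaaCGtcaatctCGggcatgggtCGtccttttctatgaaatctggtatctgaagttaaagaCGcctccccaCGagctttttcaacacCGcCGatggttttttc
Cuedc1: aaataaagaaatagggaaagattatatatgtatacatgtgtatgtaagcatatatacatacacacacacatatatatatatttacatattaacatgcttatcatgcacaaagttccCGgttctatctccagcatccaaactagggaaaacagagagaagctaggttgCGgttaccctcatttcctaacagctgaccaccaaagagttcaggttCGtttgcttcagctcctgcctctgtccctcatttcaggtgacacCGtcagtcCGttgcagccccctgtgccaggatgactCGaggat
Lmna: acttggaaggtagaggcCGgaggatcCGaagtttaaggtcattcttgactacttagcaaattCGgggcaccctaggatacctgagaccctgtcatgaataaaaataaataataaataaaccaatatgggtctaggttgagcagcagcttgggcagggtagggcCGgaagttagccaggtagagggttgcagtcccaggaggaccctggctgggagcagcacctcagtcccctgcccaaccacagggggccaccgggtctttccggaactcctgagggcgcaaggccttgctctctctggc
Cbfa2t3: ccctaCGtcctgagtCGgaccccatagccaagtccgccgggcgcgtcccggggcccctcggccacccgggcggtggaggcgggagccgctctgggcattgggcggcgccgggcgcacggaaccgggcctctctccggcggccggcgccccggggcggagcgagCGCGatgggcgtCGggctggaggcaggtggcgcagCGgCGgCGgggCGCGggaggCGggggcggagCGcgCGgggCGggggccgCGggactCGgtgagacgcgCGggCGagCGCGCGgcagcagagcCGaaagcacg
Dab1: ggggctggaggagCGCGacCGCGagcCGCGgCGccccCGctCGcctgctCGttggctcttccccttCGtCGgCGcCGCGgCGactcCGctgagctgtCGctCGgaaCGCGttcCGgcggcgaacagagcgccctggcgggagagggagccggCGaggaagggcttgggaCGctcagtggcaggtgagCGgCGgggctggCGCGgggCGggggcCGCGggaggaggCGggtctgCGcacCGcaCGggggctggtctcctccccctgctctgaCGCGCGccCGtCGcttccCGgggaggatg
Stat5b: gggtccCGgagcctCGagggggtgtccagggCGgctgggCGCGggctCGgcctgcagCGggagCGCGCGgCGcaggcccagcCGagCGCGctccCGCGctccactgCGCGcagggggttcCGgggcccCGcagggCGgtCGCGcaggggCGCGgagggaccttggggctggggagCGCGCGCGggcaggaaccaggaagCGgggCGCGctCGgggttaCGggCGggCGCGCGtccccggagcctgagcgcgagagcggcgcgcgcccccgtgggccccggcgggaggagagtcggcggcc

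These starts contrasted in their number of CpGs, counted whether measured (capitals) or not. Cbfa2t3, Dab1 and Stat5b had 53, 46 and 50 CpGs in 300 bases, while Nedd4 had 13, Lmna 7 and Cuedc1 6. Averaged over the measured CpGs and the 10 libraries, the level was 80.4% at the Nedd4 start and 49.4% at the Cuedc1 start. It was 18.3% at 4 CpGs before the Lmna start, 3.27% at Cbfa2t3, 0.878% at Stat5b and 0.859% at Dab1. The 3 CpG-rich start regions were thus nearly free of methylation at their measured CpGs (22 at Cbfa2t3, 41 at Dab1 and 38 at Stat5b). The Nedd4 region was methylated at all 13 measured CpGs.

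**Figure D1:**
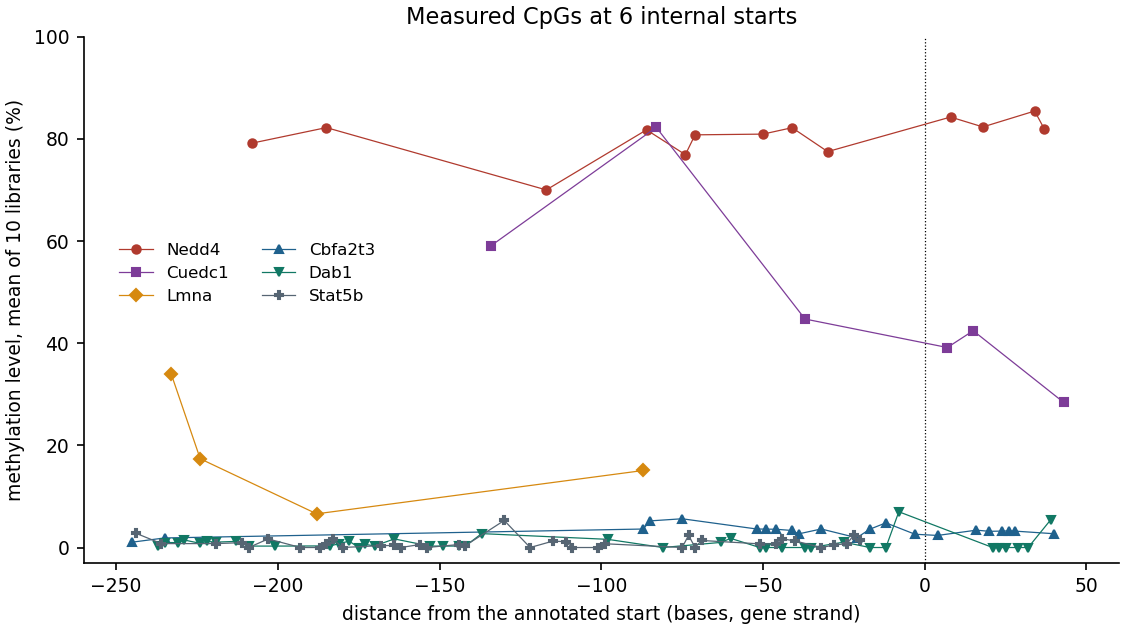
Methylation level (%, mean of 10 libraries) of each CpG measured around 6 annotated starts inside the deep tiles, against the distance from the start in bases on the gene's strand. The 13 CpGs of Nedd4 lay between 70.0% and 85.5%, the 6 of Cuedc1 between 28.4% and 82.3%, the 4 of Lmna between 6.59% and 34.0%, and those of Cbfa2t3, Dab1 and Stat5b at or under 7.0%.

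The deep tiles fell mostly at the 2 ends of the scale. A tile's level is its methylated reads as a share of all its reads, averaged here over the 10 libraries. By that measure 499 tiles (55.1%) were under 20%, 139 (15.3%) were between 20% and 80%, and 268 (29.6%) were over 80%. At the extremes, 361 tiles were under 5% and 66 were over 95%. The median level was 2.91% in the low class, 33.5% in the middle class and 92.8% in the high class. The low class had a median of 27 CpGs per tile, against 23 in the middle class and 22 in the high class. Median host gene length was 82.0 kb, 94.4 kb and 104.9 kb in the low, middle and high class, and the median distance to the nearest gene end was 12065, 11243 and 14085 bases.

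The split shifted steadily with the number of CpGs. Under 20% stood 42.0% of the tiles with 20 to 24 CpGs, 57.0% of those with 25 to 29, 72.2% of those with 30 to 39 and 89.6% of the 77 tiles with 40 or more. The share over 80% ran the other way, at 39.9%, 26.5%, 17.7% and 3.90% in the same bins. The minimum of 20 CpGs fell within this slope: the 125 tiles with exactly 20 CpGs had a median level of 28.2%, and the 156 tiles with 19 CpGs, just outside the rule, one of 78.6%.

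**Figure D2:**
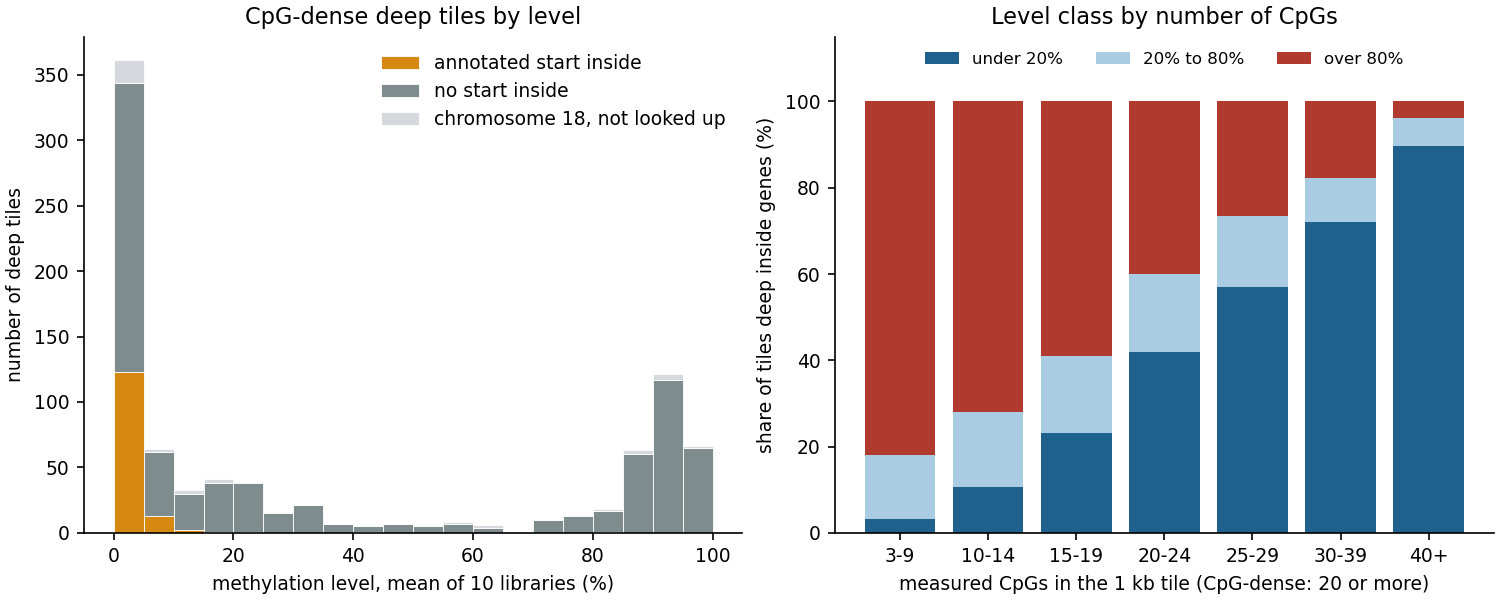
Left, number of deep tiles by methylation level (%, mean of 10 libraries) in steps of 5%, split by whether an annotated start of the host gene lay inside the tile. Right, share (%) of tiles deep inside genes in each level class by number of measured CpGs, where the share under 20% was 3.14% at 3 to 9 CpGs and 89.6% at 40 or more.

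An annotated start inside the tile went with low methylation. Starts of the 40 tiles on chromosome 18 were not looked up. Of the 142 tiles with a start, 139 (97.9%) were under 20% and 123 were under 5%. Of the 724 tiles without one, 335 (46.3%) were under 20%, 131 were in the middle class and 258 were over 80%. Counted library by library, the share under 20% averaged 97.2% with a start and 46.5% without. Widening the search to 500 bases on each side of the tile gave 197 tiles with a start, of which 193 were under 20%. A start was present in 139 of the 474 low tiles that were looked up, or 29.3%. Among these low tiles, all chosen for levels under 20%, those with a start had a median level of 2.30% and those without one 3.29%. Levels under 5% made up 88.5% of the low tiles with a start and 66.0% of those without. The median number of CpGs in these low tiles was 28 with a start and 27 without. Over all 866 tiles looked up, of every class, it was 28 with a start and 24 without. The part of CpG number in the contrast by start was not tested.

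The 3 tiles with a start that were not under 20% lay in Nedd4, which encodes a ubiquitin ligase, in Cuedc1, which encodes a protein with a ubiquitin-binding CUE domain, and in Myo18a, an unconventional myosin. They are named because they are the exceptions and were picked after their values were seen. The Nedd4 tile (chr9:72693001-72694000) read 83.1%, 79.4%, 87.2%, 84.3% and 80.7% in arsenic libraries 1 to 5 and 84.5%, 81.7%, 74.8%, 80.2% and 80.6% in control libraries 1 to 5. It was high in every library and its groups overlapped. The Cuedc1 tile (chr11:88169001-88170000) read 40.5%, 36.7%, 31.2%, 42.8% and 32.7% in arsenic and 37.4%, 51.9%, 45.0%, 48.9% and 38.7% in control, with overlap. The Myo18a tile (chr11:77777001-77778000) averaged 23.6% ± 5.41 in arsenic and 19.5% ± 2.19 in control (SD, n = 5 each), with overlap. These 3 start regions had 13, 6 and 3 CpGs, against a median of 26 over the 159 start regions in low tiles, of which 20 had at most 13. No CpG of the Myo18a start region was measured, so its tile level comes from other CpGs of the tile. Of the 159 start regions in low tiles, 130 had a measured CpG. Tile levels are thus not levels of the start regions.

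Over all 162 start regions in the deep tiles, which belong to 137 genes, the median was 26 CpGs in 300 bases, a GC content of 67.5% and an observed over expected CpG ratio of 0.825. The 32851 start regions of all genes had medians of 7 CpGs, 52.7% and 0.384. Part of this difference is set by the rule, which asks for many CpGs. The motif GGGCGG, the GC box bound by Sp factors, was found on either strand in 127 of 162 (78.4%) regions, against 35.7% of all start regions of the same length. TATAAA was found in 5 (3.09%), against 13.6% of all. Other motifs searched on both strands were CCGGAAG (ETS factors) in 7.41% against 8.86%, the NRF1 motif in 5.56% against 4.60%, TGACGTCA (CRE) in 1.85% against 1.79%, and CACGTG (E-box) in 3.70% against 7.15%. The GC box and the ETS motif can each overlap the CCGG site at which RRBS cuts, itself in 96.3% of these regions against 52.8% of all. The shares of GC-rich and AT-rich motifs move with base composition, which the rule bears on, so nothing is read from these differences. A match describes the letters only and says nothing of binding.

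Methylation around the tiles differed by class. Next to the 499 low tiles, measured tiles 1 kb away had a median level of 3.76% (448 tiles). Where a neighbour was measured, low stretches thus often ran past a single tile. A neighbour with at least 3 measured CpGs was present for 222 low tiles on 1 side and 226 on the other, and adjacent deep tiles were counted as neighbours. At 2 to 3 kb the median, averaged over the libraries, was 58.5%. That value depended on how the tiles were chosen: it was 13.8% with a distance of over 2 kb from gene ends, 76.8% with over 10 kb, 29.3% with at least 30 CpGs and 17.2% with at least 20 reads per cytosine. Of the 368 tiles at 2 to 3 kb from low tiles, 40.8% were over 80%. The 2 distances differed. At 2 kb the medians on the 2 sides were 26.6% and 22.3%, with 47.4% and 46.5% of tiles under 20%. At 3 kb they were 82.9% and 80.4%, with 37.8% and 35.0% of tiles under 20%. Around middle tiles the median was 52.4% at 1 kb (121 tiles) and 90.1% at 2 to 3 kb (112 tiles). Around high tiles it was 93.6% and 93.4% at the 2 distances.

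**Figure D3:**
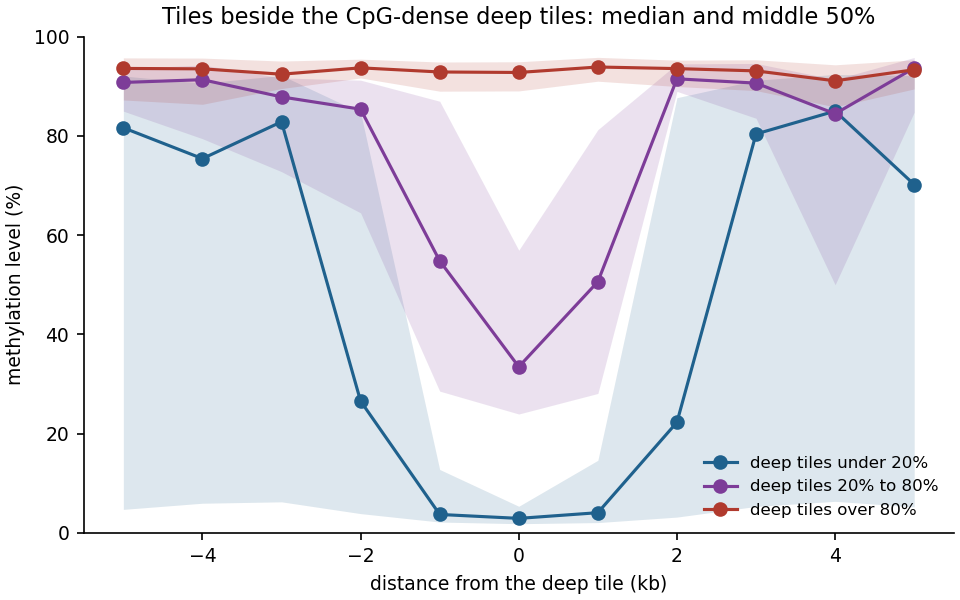
Median methylation level (%, mean of 10 libraries) of the measured tiles at each distance (kb) from deep tiles of the 3 level classes, with the middle 50% of tiles shaded. The level stayed near 92.8% around high tiles, dipped at middle tiles to 33.5%, and dipped at low tiles to 2.91%.

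Within tiles, cytosines mostly shared the tile's level. In the median low tile 100% of cytosines were under 20%, and in the median high tile 97.5% were over 80%. In 110 of the 139 middle tiles, more than 50% of cytosines were themselves between 20% and 80%, so these tiles were partly methylated at most of their sites. A tile that held both a cytosine under 20% and one over 80% was found 73 times, 28 of them in the middle class. At the 12016 CpGs read on both strands the median difference between strands was 1.90 percentage points, and 96.4% differed by less than 10 points.

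Set beside other tiles, the deep CpG-dense tiles stood between dense tiles at gene ends and CpG-poor tiles in the same kind of location. Their mean level was 36.0% ± 0.423 in arsenic and 36.6% ± 0.412 in control (SD, n = 5 each). The 6663 dense tiles within 1 kb of a gene end averaged 4.12% ± 0.168 in arsenic and 4.56% ± 0.689 in control. The 494 dense tiles between genes averaged 53.9% ± 0.474 in arsenic and 54.3% ± 0.260 in control, and the 46569 tiles of 3 to 19 CpGs deep inside genes 83.0% ± 0.271 in arsenic and 83.0% ± 0.408 in control. Within each of the 10 libraries the deep dense tiles stood 31.4 to 32.5 points above gene-end tiles, 17.4 to 18.3 points below tiles between genes and 46.2 to 47.8 points below CpG-poor tiles. Tiles under 20% made up 97.1% of the gene-end tiles and 33.2% of the tiles between genes, averaged over the libraries.

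The tiles with the most CpGs in each class show what the classes look like gene by gene. Tenm3, which encodes a teneurin adhesion molecule, held the densest tile, with 80 CpGs at chr8:48555001-48556000. It read 1.598%, 0.683%, 5.63%, 0.454% and 16.2% in arsenic libraries 1 to 5 and 0.391%, 3.27%, 4.94%, 2.36% and 4.33% in control libraries 1 to 5. Arsenic library 5 stood above the other libraries here. Cbfa2t3, a transcriptional corepressor, held 71 CpGs in the tile whose start is printed above. It read 0.454%, 1.01%, 5.16%, 0.918% and 1.62% in arsenic and 2.19%, 1.76%, 1.71%, 11.97% and 3.31% in control, with control library 4 highest. Tiles of 66 CpGs in Cacna1a, the pore subunit of a neuronal calcium channel, and in Nr3c1, the glucocorticoid receptor, averaged 2.39% each.

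In the middle class the densest tile lay in Shroom3, which encodes an actin-binding protein of apical cell shape, with 79 CpGs at chr5:92942001-92943000. It read 19.2%, 19.4%, 19.7%, 17.9% and 11.7% in arsenic and 24.5%, 34.5%, 26.8%, 21.5% and 19.5% in control. The groups overlapped only through control library 5, which at 19.5% lay just under the highest arsenic value. Its difference had an unadjusted p of 0.00572 and an adjusted p of 0.808 (quasi-binomial model). Bcl11b, a zinc finger factor of T cells and neurons, averaged 21.04% ± 2.78 in arsenic and 24.5% ± 3.25 in control over 49 CpGs. Bsn, the presynaptic scaffold bassoon, averaged 36.9% ± 3.64 in arsenic and 35.2% ± 5.29 in control over 48 CpGs, and Jph3, a junctophilin, 23.7% ± 2.74 in arsenic and 24.96% ± 8.89 in control over 45 CpGs. None of these 4 tiles was called.

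In the high class the densest tile lay in Plec, which encodes the cytoskeletal linker plectin, with 63 CpGs at chr15:76179001-76180000. It read 97.8%, 97.7%, 96.7%, 97.7% and 97.9% in arsenic and 97.2%, 97.4%, 96.9%, 98.3% and 97.0% in control. All 10 libraries lay close together, with no separation of the groups. Map3k1, a kinase upstream of JNK, averaged 96.6% ± 0.890 in arsenic and 96.0% ± 0.829 in control over 43 CpGs. Spen, a large RNA-binding corepressor, averaged 95.8% ± 0.156 in arsenic and 96.6% ± 1.01 in control over 40 CpGs. Triqk averaged 83.3% ± 2.07 in arsenic and 80.9% ± 1.66 in control over 36 CpGs.

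Of the 733 host genes, 130 held more than 1 tile. In 62 of these every tile was under 20%, in 17 every tile was over 80%, and 18 held both kinds. A range of over 50 points within the gene was found in 31. Zfhx3, a homeobox and zinc finger factor, held 5 tiles, of which those at 1.80% and 19.4% were low and those at 81.2%, 92.2% and 94.2% were high (mean of 10 libraries). Cacna1a held 3 tiles at 1.28%, 1.29% and 2.39% and one at 94.1%. In Gse1, 4 tiles stood between 93.9% and 96.9% and one at 13.1%. Bsn held 5 tiles between 23.7% and 87.6%, 4 of them in the middle class. Runx2, a factor of bone development, had 4 adjacent tiles between 2.45% and 3.25%, and Skor2, a corepressor of the cerebellum, 4 tiles between 1.68% and 4.50%. Adjacent tiles share fragments of the same region and are not independent.

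The lists of host genes differed in which class their tiles fell into. Homeobox and other developmental factors hosted 48 tiles in 27 genes, of which 39 were under 20%, 6 in the middle and 3 over 80%, with a median of 4.35%, against 14.1% over all 906 tiles. Examples under 20% were the 3 tiles of Pax2, a kidney and midbrain factor, at 1.20% to 2.09%, the 3 of Runx1, a blood factor, at 1.42% to 2.09%, and the 4 of Ebf3 at 1.84% to 4.88%. Zfhx3, also a homeobox factor, was listed with the zinc finger factors and is not in these counts. It held 2 tiles under 20% and 3 over 80%. Cytoskeleton and motor genes showed the reverse order: 21 of their 31 tiles in 19 genes were over 80% and 8 under 20%, with a median of 90.1%. Among them were the 4 tiles of Plec at 96.7% to 97.4%, 3 of titin (Ttn) at 94.4% to 96.8% and 3 of Dst, a spectraplakin, at 89.7% to 95.5%. Sptbn4, a spectrin of axons, went the other way with 3 tiles at 1.46% to 4.79%. These shares are descriptions: several tiles of 1 gene were counted, and the lists were not tested.

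Chromatin enzymes and corepressors hosted 22 tiles, 12 over 80% and 5 under 20%, with a median of 84.2%. Signalling genes of the Wnt, Notch, Hedgehog, TGF-beta and growth factor pathways hosted 21 tiles, of which 14 were under 20% and 3 over 80%, with a median of 3.15%. They included the 3 tiles of Ptch1, the Hedgehog receptor, at 0.597% to 3.15%. The list was matched by gene symbol, which also brought in the 3 tiles of Fgf12 at 1.21% to 2.16%. Whether each matched gene acts in these pathways was not checked. Ion channel genes hosted 27 tiles (16 low, 3 middle, 8 high), zinc finger factors 52 (26, 12 and 14 in the same order), synapse and adhesion genes 30 (14, 9 and 7) and extracellular matrix genes 12 (4, 3 and 5). Of the genes on each list in the annotation, 2.13% (germline) to 15.3% (cytoskeleton and motors) hosted a deep tile, against 3.35% of all protein-coding genes. None of the lists held a called tile.

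Imprinted genes hosted 3 tiles. Grb10, an adaptor that restrains growth factor signalling, held adjacent tiles at chr11:12025001-12027000, and Impact, a regulator of translation, one tile at chr18:12973001-12974000. Both genes are known to carry a maternally methylated control region inside the gene; whether these tiles are those regions was not tested. The Grb10 tiles averaged 11.5% ± 5.99 in arsenic and 8.59% ± 5.76 in control, and 13.1% ± 7.36 in arsenic and 14.9% ± 4.76 in control. Impact read 2.55%, 9.82%, 7.95%, 12.8% and 11.6% in arsenic and 14.3%, 13.02%, 10.2%, 17.3% and 7.29% in control. All 3 tiles were low in both groups and their groups overlapped. The 1 germline gene with a tile was Asz1, of the piRNA pathway in male germ cells, which averaged 95.5% ± 1.29 in arsenic and 96.3% ± 1.77 in control.

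Genes of one-carbon metabolism, arsenic handling and oxidative stress hosted 3 tiles in 45 genes, and none was called. Mthfd2, a mitochondrial folate enzyme, averaged 4.40% ± 5.24 in arsenic and 1.28% ± 0.899 in control, where arsenic library 3 alone stood at 13.5%. Slc39a8, a transporter of zinc and other metals, averaged 2.20% ± 2.34 in arsenic and 4.29% ± 5.05 in control. Slc19a1, the reduced folate carrier, held the high tile of the list, at 86.1% over the 10 libraries.

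The comparison of arsenic with control asked whether the deep tiles differed in the F2 testis. The mean over all 906 tiles was 35.4%, 36.1%, 35.8%, 36.0% and 36.5% in arsenic libraries 1 to 5 and 36.1%, 36.3%, 36.6%, 36.7% and 37.1% in control libraries 1 to 5. Arsenic was 0.604 points lower on average, and the groups overlapped. In the low class the mean was 4.62% ± 0.387 in arsenic and 5.21% ± 0.507 in control, and in the high class 91.9% ± 0.288 in arsenic and 91.8% ± 0.301 in control (SD, n = 5 each). The middle class showed the widest gap: 39.1%, 41.2%, 39.7%, 41.3% and 42.0% in arsenic, against 40.8%, 42.7%, 43.7%, 42.8% and 42.7% in control. Control library 1 stood within the arsenic range, and the other 4 control libraries stood above all arsenic libraries. The mean of that class was 40.6% ± 1.217 in arsenic and 42.5% ± 1.05 in control, 1.92 points lower in arsenic.

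Other measures moved along with these means. Coverage was higher in arsenic libraries, whose median reads per deep tile averaged 1577 ± 108, than in control libraries, where they averaged 1314 ± 175 (SD, n = 5 each). Gene-end dense tiles stood at 3.96% to 4.38% in arsenic libraries, at 4.95% and 5.59% in control libraries 4 and 5, and at 4.05% to 4.13% in the other control libraries. Without control libraries 4 and 5 the arsenic mean of all deep tiles was 0.356 points lower than control, and that of the middle class 1.82 points lower. The part of coverage in these differences was not tested.

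**Figure D4:**
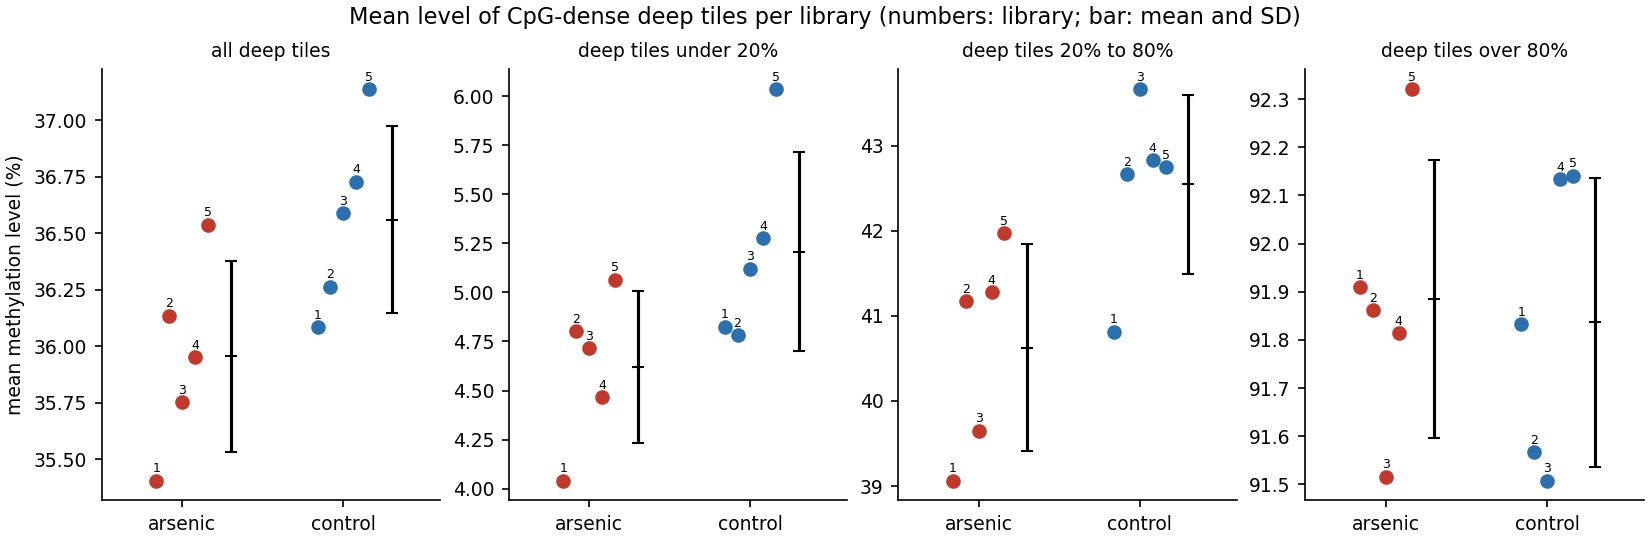
Mean methylation level (%) of all 906 deep tiles and of the 3 level classes in each library, arsenic left and control right, with library numbers at the points and the group mean and SD as a bar; the y axes differ. The groups overlapped in every panel, and the arsenic mean was lower by 0.604 points over all tiles and by 1.92 points in the middle class.

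Tile by tile, no difference passed the test. A quasi-binomial model of methylated out of all reads, fitted to all 165978 tiles with Benjamini-Hochberg adjustment, called 0 tiles (0.0%), and so 0 of the 906 deep tiles. Calls required a difference of 10 points or more together with adjusted p under 0.05. The difference in this rule is between the pooled reads of the groups, not between the means of libraries given elsewhere. The lowest adjusted p was 0.787 among the deep tiles and 0.506 over all tiles. At an unadjusted p under 0.05, 61 deep tiles (6.73%) were lower in arsenic, where the share over all tiles was 3.34%, and 25 (2.76%) were higher, where it was 2.47%. For gene-end dense tiles the shares were 8.12% lower and 3.50% higher. The split was most one-sided in the middle class, where 19 of 139 tiles were lower and 0 higher by this measure. Over all tiles of that level the counts were 1402 lower and 610 higher of 35954. Gene-end dense tiles of that level were also mostly lower, with 11 lower and 2 higher of 112. With limma, run on the log2 ratio of methylated over unmethylated reads, 6 middle tiles were lower and 0 higher, and 1 of all tiles was called, which was not a deep tile. Leaving out 1 arsenic library at a time gave 1 to 3 middle tiles higher in arsenic.

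Differences in the deep tiles were small. The median difference, arsenic minus control, was -0.270 points, against -0.104 over all tiles, and it was -0.281 in the low class, -1.64 in the middle class and 0.0683 in the high class. Over all tiles of the same levels the medians were -0.384, -0.538 and 0.101. The arsenic mean was lower in 529 of 906 deep tiles (58.4%), against 52.0% of all tiles and 59.8% of gene-end dense tiles. In the middle class it was lower in 98 of 139 deep tiles (70.5%), against 56.3% of all tiles and 64.3% of gene-end dense tiles of that level. The differences of 858 tiles (94.7%) were under 5 points, and the range was -11.8 to 5.54 points. The spread between libraries of a group had a median SD of 2.23 points per tile, and 4.94 in the middle class. The 2 groups did not overlap in 7 deep tiles that were lower in arsenic and in 1 that was higher, or 0.773% and 0.110%, where the shares over all tiles were 0.483% and 0.349%. These tiles lay in Ttn, Vmn2r55, Atxn7l1, Cmip, Ap1b1, Dtnb and Git2 (lower) and in Zfhx3 (higher), and 5 of them are named after their values were seen.

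Among the tiles lower in arsenic, the smallest p belonged to Scn11a, a voltage-gated sodium channel of pain-sensing neurons, at chr9:119797001-119798000 with 26 CpGs. It read 15.9%, 21.6%, 20.5%, 20.7% and 17.0% in arsenic libraries 1 to 5 and 27.8%, 19.9%, 32.7%, 27.6% and 32.9% in control libraries 1 to 5. The 4 control libraries other than library 2 stood above all arsenic libraries. The means were 19.1% ± 2.53 in arsenic and 28.2% ± 5.30 in control, with an unadjusted p of 0.000706 and an adjusted p of 0.787 (quasi-binomial model, 165978 tiles). In this tile 75.5% of cytosines lay between 20% and 80%.

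Tacc1, a centrosomal coiled-coil protein, held a tile of 36 CpGs at chr8:25201001-25202000. It read 2.42%, 0.271%, 0.383%, 0.466% and 1.62% in arsenic and 3.27%, 6.31%, 1.53%, 7.30% and 4.67% in control, and the groups overlapped through control library 3. The Ttn tile at chr2:76725001-76726000 read 94.8%, 95.1%, 95.5%, 96.0% and 96.9% in arsenic and 98.6%, 97.3%, 97.2%, 98.1% and 98.9% in control. The groups did not overlap, with means of 95.7% ± 0.844 in arsenic and 98.03% ± 0.769 in control. Adcy9, an adenylyl cyclase, averaged 0.916% ± 0.860 in arsenic and 4.31% ± 3.23 in control, and control libraries 1 and 4 lay within the arsenic range.

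Skap1, an adaptor of T cell receptor signalling, averaged 15.8% ± 3.06 in arsenic and 23.6% ± 4.36 in control over 20 CpGs at chr11:96723001-96724000, with overlap. The tile in Vmn2r55, a vomeronasal receptor, read 82.8%, 80.7%, 78.8%, 82.8% and 82.8% in arsenic and 83.0%, 88.6%, 88.8%, 87.0% and 88.8% in control. The lowest control library stood just above the highest arsenic libraries, so the groups separated narrowly. For these 5 tiles the unadjusted p was 0.00107 to 0.00268 and the adjusted p was 0.808 in each (quasi-binomial model).

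Among the tiles higher in arsenic, the Zfhx3 tile at chr8:108704001-108705000 had the smallest p. It read 4.22%, 1.69%, 1.59%, 1.73% and 4.01% in arsenic and 0.631%, 1.24%, 0.625%, 0.868% and 1.39% in control. The groups did not overlap, and arsenic libraries 1 and 5 stood apart from the other arsenic libraries. Lmna, which encodes the nuclear lamins A and C, had a tile with the internal start printed above. It read 14.1%, 12.8%, 12.9%, 10.1% and 15.3% in arsenic and 10.4%, 8.66%, 8.45%, 10.9% and 8.87% in control, with overlap through arsenic library 4. The Dst tile averaged 91.5% ± 1.48 in arsenic and 87.9% ± 2.04 in control, and control library 1 lay within the arsenic range.

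Afap1l2, an actin-associated adaptor, averaged 2.06% ± 1.45 in arsenic and 0.589% ± 0.329 in control. Larp1, an RNA-binding protein of ribosomal protein mRNAs, averaged 3.61% ± 3.16 in arsenic and 0.371% ± 0.306 in control. Crb2, a cell polarity protein, averaged 5.80% ± 5.14 in arsenic and 0.953% ± 0.603 in control. In each of these 3 low tiles 4 arsenic libraries stood above every control library, up to 3.83%, 7.66% and 13.3%, and 1 lay within or below the control range. The unadjusted p of the 6 tiles was 0.00388 to 0.00772 and the adjusted p was 0.808 (quasi-binomial model).

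**Figure D5:**
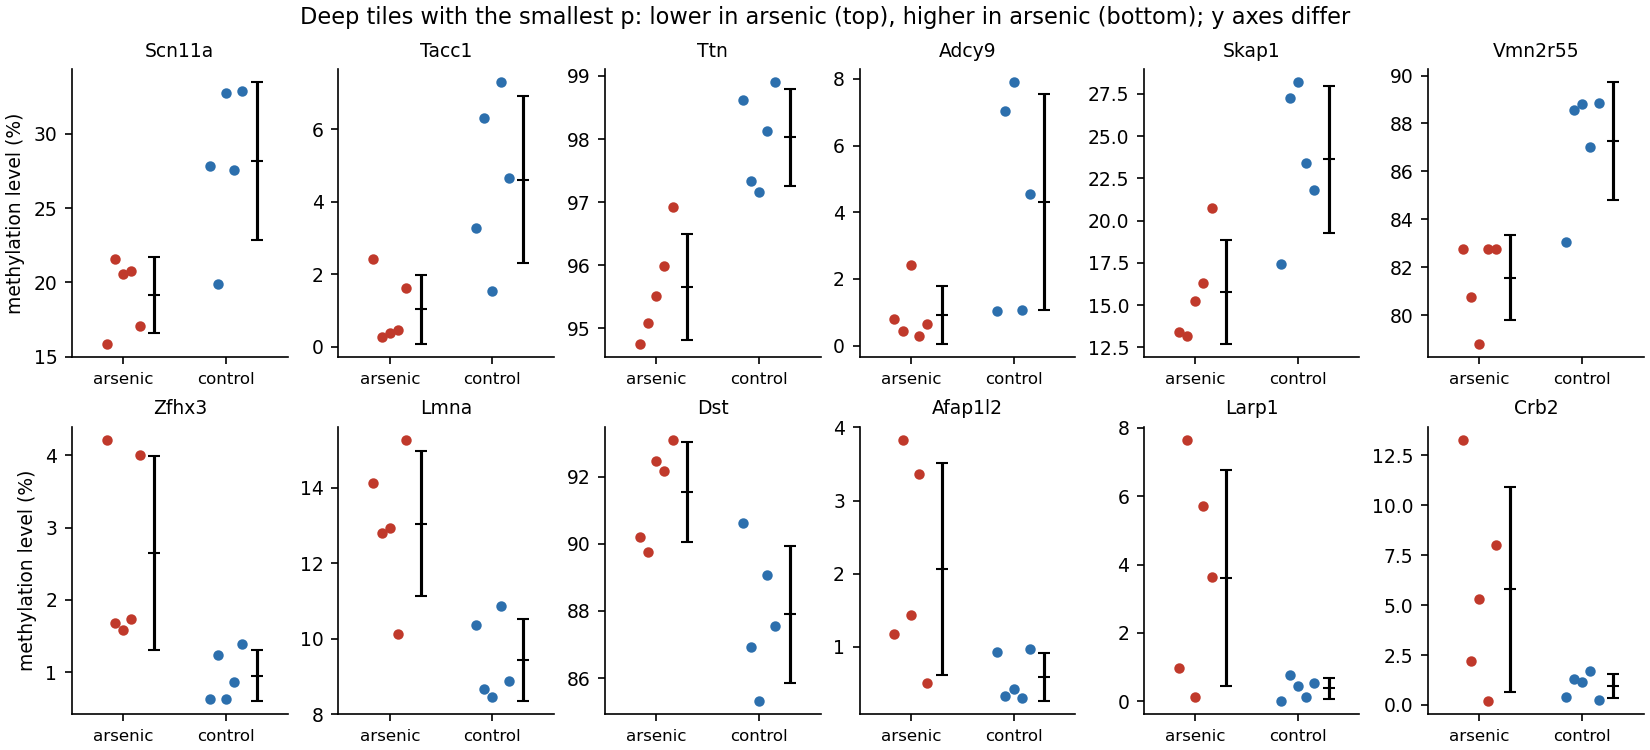
Methylation level (%) per library, arsenic left and control right, of the 6 deep tiles with the smallest p that were lower in arsenic (top) and the 6 that were higher (bottom), with group mean and SD; the y axes differ. The Scn11a tile averaged 19.1% in arsenic and 28.2% in control, and the groups did not overlap in the Ttn, Vmn2r55 and Zfhx3 tiles.

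The tile with the smallest p in the signalling list lay in Fgfr4, a fibroblast growth factor receptor, and read 18.3%, 26.8%, 30.1%, 27.6% and 17.6% in arsenic and 34.0%, 26.9%, 35.4%, 35.0% and 37.3% in control. Its groups overlapped, with means of 24.1% ± 5.72 in arsenic and 33.7% ± 4.02 in control. Cacna1e, a calcium channel, averaged 8.47% ± 2.17 in arsenic and 13.4% ± 3.86 in control. Hdac7, a histone deacetylase, averaged 24.6% ± 4.05 in arsenic and 29.7% ± 5.41 in control, and Kdm2b, a histone demethylase, 94.0% ± 0.927 in arsenic and 91.6% ± 2.45 in control. Unadjusted p was 0.00274 to 0.0438 for these 4 and adjusted p 0.808 to 0.859 (quasi-binomial model), so none was called. The remaining tiles with the smallest p in their lists, in Prdm11, Lhx4, Runx1, Col8a2, Adamts20, Grik2, Shank3 and Jag2, had differences, arsenic minus control, of -2.28 to 1.88 points and were not called either.

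Some deep tiles varied widely between libraries of a group. The largest spread was in Foxp1, a forkhead factor, whose tile at chr6:99028001-99029000 read 0.714%, 0.704%, 0.0%, 0.672% and 0.338% in arsenic and 0.0%, 0.853%, 0.0%, 49.7% and 0.0% in control. Only control library 4 was high, and this tile had 310 to 714 reads per library. Cdh4, a cadherin, read 44.5% to 75.6% in arsenic with a median of 66.2% and 42.8% to 82.4% in control with a median of 65.4%. Jade1, a subunit of a histone acetyltransferase complex, lay between 0.885% and 25.5% in arsenic and between 1.41% and 28.8% in control. Pde4dip, a centrosome and Golgi protein, lay between 0.998% and 28.97% in arsenic and between 0.271% and 27.1% in control. In the last 3 tiles both groups spanned nearly the same range.

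A partly methylated region of Gpr179, which encodes a receptor needed by bipolar cells of the retina, lay at the edge of the rule. Its tile at chr11:97337001-97338000 had 18 CpGs and lay 4892 bases from a gene end, so it was not counted. It read 17.6% ± 3.23 in arsenic and 32.9% ± 4.79 in control. The next tile, with 14 CpGs, read 12.8% ± 1.49 in arsenic and 27.2% ± 4.81 in control. On this grid the adjusted p of each was 0.506 (quasi-binomial model), so neither was called. With the tile grid moved by 500 bases, the tile at chr11:97337501-97338500 had 25 CpGs, lay 5392 bases from a gene end and was the 1 tile called on that grid, at 16.04% ± 1.85 in arsenic and 33.5% ± 4.01 in control (adjusted p = 0.0462, quasi-binomial model).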

How the data were processed

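RRBS libraries of F2 testis DNA, 5 arsenic and 5 control, were grouped and numbered by their titles. Per the submitters' processing notes, Bismark 0.22.3, methylKit 1.22.0 and Trim Galore 0.6.5 were used, with mm10. Settings were not given in the sources used here. The deposited table holds, per the file headers, unnormalised read counts per cytosine and library: all reads, methylated reads and unmethylated reads. The lowest coverage was 10 reads, so the minimum of 10 removed nothing. Reads carry no molecular identifiers, so duplicates cannot be told from molecules.

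Counts were summed over tiles of 1000 bases with at least 3 CpGs. Each tile was fitted with a quasi-binomial logistic model with a group term, its dispersion squeezed across tiles as in limma and not under 1, and tested with an F test and Benjamini-Hochberg adjustment over all tiles. Calls required a difference of 10 points or more between the pooled reads of the groups, together with adjusted p under 0.05. P-values set the read counts against the squeezed dispersion, which draws on the spread between libraries, on all tiles and on the floor. Genes came from the RefSeq table of GRCm38.p6, and measured CpGs fell on CG at all 1762 positions of the 162 start regions. Marker lists named above were read at gene ends. Python 3.11.15, numpy 2.4.6, scipy 1.17.1, pandas 2.3.3, R 4.3.3 and limma 3.58.1 were used.

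Tiles named were, by direction, the 6 of smallest p, the 4 with the most CpGs per level class, those of the 6 genes with the most tiles, the 4 with the largest SD, all in imprinted and germline genes, and the 2 with the smallest p in other lists; 1 list is not reported here. Members and lists were chosen with earlier results of these data known. Alternatives were another coverage minimum, CpG minimum, distance or tile grid, limma, reads as replicates, a replicate block, and leaving out libraries.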

Additional observations from a re-analysis of the deposited data

Results flagged for a closer look

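In 16 of 174 groups of 5 libraries checked, 1 library stood far from the other 4 (Dixon's 95% criterion). For independent, normally distributed values chance would flag about 1 in 20 groups, or 8.7 here. Many of the groups were tiles chosen by their values, some of them for a large SD, and some tiles were adjacent. The 8.7 is therefore no measure of how many flags arose by chance. Of the 16, 3 were arsenic library 1, 4 arsenic library 3 and 3 control library 4.

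Over the tiles with an annotated start, arsenic library 1 was lowest at 3.19%, with the other arsenic libraries between 3.61% and 3.73%. In the share of deep tiles over 80%, control library 5 was highest at 30.4%, with the other control libraries at 29.4% to 29.6%.

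In arsenic libraries, library 3 was highest in the Adcy9 tile at 2.42%, in the Cbfa2t3 tile at 5.16% and in the Mthfd2 tile at 13.5%, and lowest in the Plec tile at 96.7%. Arsenic library 5 was lowest in the Shroom3 tile at 11.7%. In Cacna1a, arsenic library 1 was highest in the tile starting at 84415001 with 5.70%, where the others reached at most 0.616%, and arsenic library 2 was lowest in the tile starting at 84597001 with 90.7%. In Runx2, arsenic library 1 was lowest in the tile starting at 44737001 with 2.31%.

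In control libraries, library 4 was highest in the Foxp1 tile at 49.7%, where the others reached at most 0.853%, in the Cbfa2t3 tile at 11.97% and in the Skor2 tile starting at 76856001 at 4.86%. Control library 5 was highest in the Skor2 tile starting at 76858001 at 18.3%, where the others lay between 2.03% and 5.13%. Control library 2 was lowest in the Cacna1a tile starting at 84559001 at 0.648%, and control library 3 was highest in the Spen tile at 98.4%.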

How the results depend on the processing

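Levels changed with the definition of the tiles and little with the libraries. Of 6 other definitions, at least 15 CpGs gave 2138 tiles, at least 30 CpGs 235, over 2 kb from gene ends 1492, over 10 kb 546, at least 20 reads per cytosine 219 and tiles shifted by 500 bp 900. In that order the mean level was 52.4%, 18.8%, 32.7%, 37.7%, 37.2% and 36.6% in arsenic, and 52.9%, 19.4%, 33.3%, 38.3%, 37.7% and 37.2% in control. The mean stood above gene-end dense tiles by 46.3, 15.9, 28.6, 33.7, 34.1 and 32.5 points. Minus the tiles between genes it was -7.56, -10.6, -17.2, -23.5, -23.0 and -16.7 points, and minus CpG-poor deep tiles -30.4, -63.9, -49.0, -45.4, -44.6 and -46.1 points. The share over 80% was 46.3%, 13.3%, 26.3%, 32.0%, 31.2% and 30.2%, and the median level 2 to 3 kb from low tiles 72.4%, 29.3%, 13.8%, 76.8%, 17.2% and 64.0%.

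The share under 20% was 36.6%, 77.2%, 59.5% and 53.4% under the first 4 definitions. Among tiles with a start it was 94.6% with at least 15 CpGs, 98.3% with at least 30 and 99.8% with at least 20 reads. Among tiles without a start it was 29.8%, 69.8% and 44.1% under the same 3, 51.3% over 2 kb from gene ends, and 42.3% when a start within 500 bp counted. Homeobox and developmental tiles under 20% made up 63.1% (15 CpGs), 90.5% (30 CpGs), 86.7% (2 kb), 90.0% (20 reads) and 76.3% (shifted), and cytoskeletal tiles over 80% made up 69.1%, 100%, 63.9%, 100% and 68.6% under these. The values at 30 CpGs and at 20 reads rest on definitions that kept 235 and 219 deep tiles of all lists. How many tiles of each list were left there is not given, so the 100% may rest on few tiles. Weighting each cytosine equally gave a neighbour median of 61.8%. Why the values moved was not tested beyond the tiles each definition keeps.

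At least 20 reads left 16 deep tiles lower and 8 higher in arsenic at an unadjusted p under 0.05, with 5 and 1 in the middle class. On the shifted grid 1 tile was called, the Gpr179 tile, which was a deep tile there. Limma called 1 of all tiles and 0 deep tiles, with 35 deep tiles lower and 14 higher at an unadjusted p under 0.05 (6 middle tiles lower). Treating reads as replicates, which leaves out the spread between libraries, called 1986 tiles, 4 of them deep. It gave 352 deep tiles lower and 210 higher (72 and 25 in the middle class). Fgfr4 was then called on the difference between pooled reads, while its arsenic mean minus its control mean was -9.63 points. Leaving out 1 library at a time gave 0 called tiles, 57 to 80 deep tiles lower and 19 to 37 higher, and 16 to 24 middle tiles lower and 0 to 3 higher. The difference of means stayed between -0.750 and -0.460 points. Same-numbered arsenic and control libraries did not deviate together (r across tiles -0.0126 to 0.0167), so the numbers were not taken to pair them. With a replicate block 0 tiles were called, 101 deep tiles were lower and 36 higher, and 28 middle tiles were lower and 2 higher.

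For the 31 tiles named for a difference, none of which was called, 0 of 556 values under the alternatives changed direction. The difference of library means is the same whichever model is fitted, so those alternatives could not change it. The others mostly left out a library or kept part of the same reads, and the tiles were chosen by their p or their values. This count is therefore no test of direction. Sizes moved by over 1.5 times in several: with at least 20 reads the difference was -0.408 points for Adcy9, 0.105 for Larp1 and 0.667 for Lmna (unadjusted p 0.568, 0.560 and 0.588), and without control library 5 it was -0.210 for Slc39a8 (p = 0.580, quasi-binomial model). For the 44 named for a level, 565 of 567 stayed within the spread, the exceptions being Triqk and 1 Gse1 tile at 20 reads. Most of these alternatives left out 1 or 2 libraries or only the cytosines of highest coverage. Such changes can hardly move a mean over libraries beyond the spread within groups, so this count is no test of the levels. Named tiles gave no value on the shifted grid, or at 20 reads where too few CpGs were left. The alternatives for starts, neighbours, lists and the middle class were chosen after seeing the data. Tiles with few reads, such as the Foxp1 tile at 310 to 714 per library, carry the least precise levels.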
